A study of Mus musculus with 15 samples.

Results

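miR-31 was measured by 2 of the 584 miRNA assays of the series, 1 for each arm of its hairpin. They were found by name, as every assay called miR-31 with or without an arm suffix: mmu-miR-31 (here miR-31), on the first array card (card A), and mmu-miR-31* (here miR-31*), on the second (card B). The miRNA was chosen by its measured levels in untreated αTC1-6 and βTC1, which were known to differ, so the comparison of these lines is given as a description and was not tested.

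MiRNAs were profiled by quantitative PCR on TaqMan low density arrays in 15 samples of 2 mouse cell lines, with 3 replicates in each of 5 groups. αTC1-6 is a line of glucagonoma origin that stands for the pancreatic α cell, and βTC1 is an insulinoma line that stands for the β cell. αTC1-6 was grown untreated or with TNFa and IFNg (1000 IU/ml of each) together with IL1b (50 IU/ml) for 24H or 48H, and βTC1 was profiled only untreated, at 24H. Each cell type is thus represented by a single tumour-derived line, with no cytokine-treated βTC1 among the profiled samples. From 213 to 336 of the 375 miRNA assays of card A and from 174 to 191 of the 209 of card B had a threshold cycle (Ct) in a sample. The islet miRNA miR-375 had a Ct in all 15 samples and exceeded the reference miR-26a in each, with ΔCt between -4.44 and -1.76. The other islet miRNAs listed, miR-7a and miR-7b, each had a Ct in 11 of 12 αTC1-6 samples and in all 3 of βTC1. They lay below miR-26a there, with ΔCt from 1.94 to 4.56 and from 2.87 to 5.42.

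A miRNA hairpin is cut into a duplex whose arms, 5p and 3p, can each enter an Argonaute protein and then pair with messenger RNAs mainly through the seed near the 5′ end. The arm suffix * is an older name for the arm once taken to be the passenger strand, which for miR-31 is the 3p arm. miR-31 is known as a regulator of proliferation and invasion in tumours, where it is often lost together with the neighbouring Cdkn2a and Cdkn2b tumour suppressor genes, and TNF raises it in endothelial cells.

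The mature sequences show what each assay detects and that the arms carry unlike seeds. The assay miR-31 corresponds to the 5p arm, a 22-base RNA at chr4:88910614-88910635 on the minus strand of GRCm38.p6, and miR-31* to the 3p arm, a 23-base RNA at chr4:88910577-88910599 on the same strand. The sequences are those of RefSeq, both assays matched an entry there, and capitals mark the seed, bases 2 to 8.
miR-31-5p: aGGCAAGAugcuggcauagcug
miR-31-3p: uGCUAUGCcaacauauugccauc
Each seed occurred in 1 of the 1674 distinct mature mouse miRNA sequences of that set, so neither arm has a seed relative among them. The hairpin gene, Mir31, lies at chr4:88910557-88910662, within the lncRNA gene Gm49890. The nearest protein-coding genes are Ifne, an interferon gene, on one side and Mtap, the methionine salvage enzyme, followed by Cdkn2a and Cdkn2b, on the other.

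At steady state, the 5p arm amplified late in αTC1-6 and several cycles earlier in βTC1. The Ct of miR-31 in untreated αTC1-6 at 24 h was 33.97 in replicate 1, 32.38 in replicate 2 and 31.76 in replicate 3, where a lower Ct means more template. In βTC1 it was 27.95, 23.77 and 22.57. Relative to miR-26a, the reference of the deposited values, αTC1-6 had a ΔCt of 14.63 ± 0.486 (SD, n = 3). βTC1 had a ΔCt of 6.55 ± 2.62 (SD, n = 3). Every βTC1 sample lay above every αTC1-6 sample, those with cytokines and of 48 h included. Expressed per 1000000 of the miR-26a quantity, miR-31 amounted to 30.8, 34.2 and 57.8 in untreated αTC1-6 at 24 h, and to 1312, 30620 and 30440 in βTC1. On the log2 scale the lines differed by -8.09 (αTC1-6 minus βTC1, SE 1.35), or 272-fold. In 28.5% of the 480 assays compared between the lines, every βTC1 sample exceeded every untreated αTC1-6 sample of 24 h. The share with βTC1 also above the αTC1-6 samples with cytokines and of 48 h was not counted. The median difference over all 480 was -0.52.

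The 3p arm showed the same order of the lines with gaps in its data. miR-31* had a Ct of exactly 38, a Ct of 30.59 and an undetermined well in the 3 untreated αTC1-6 samples of 24 h. In βTC1 its Ct was 27.26 and 23.99 in replicates 1 and 2, and the third value is blank in the normalized table. With the undetermined well entered at a Ct of 40, the αTC1-6 samples had a ΔCt of 18.13 ± 4.70 (SD, n = 3). With the blank left out, that of βTC1 was 7.07 ± 2.57 (SD, n = 2). The difference of -11.06 (log2, SE 3.06) therefore rests on 4 Ct values, among them that of exactly 38. Its size is set in part by that value and by the one entered for the undetermined well. The difference was -8.39 with later Ct values and the undetermined well set to 35. It was -6.13 when βTC1 was set against the untreated αTC1-6 of 48 h.

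In the order of all 480 assays from the most βTC1-rich, miR-31*, with its undetermined well at 40, was at position 24, next to miR-330 (log2 -11.34) and miR-1* (-10.86), and miR-31 at position 38, next to miR-542-5p (-8.09) and miR-672 (-7.98). Of these 4 neighbours, all but miR-672 had a Ct in 3 of the 6 samples. Among the 326 assays with a Ct in all 6 samples, miR-31 was at position 4, between miR-135b (log2 -9.70) and miR-135a (-7.51). In cells profiled in bulk, fewer cells expressing a miRNA and less of it per cell cannot be told apart.

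**Figure D1:**
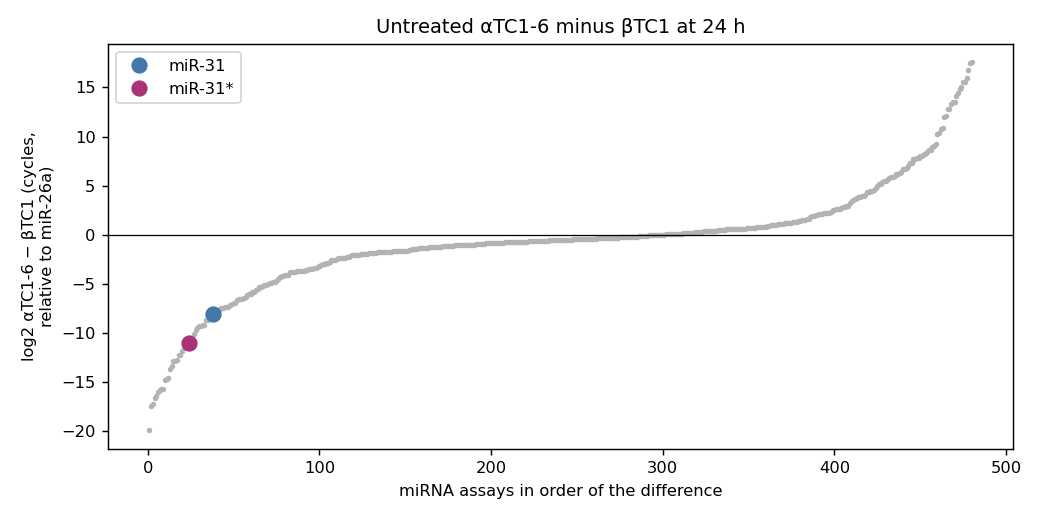
Log2 difference between untreated αTC1-6 and βTC1 at 24 h, relative to miR-26a (vertical axis, in cycles), for the 480 assays compared, in order of that difference (horizontal axis). miR-31, at -8.09, and miR-31*, at -11.06, lie on the βTC1-rich side, where values are below 0.

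The level of the 5p arm varied widely among the βTC1 replicates. Replicate 1 had a ΔCt of 9.57, while replicates 2 and 3 had 5.03 and 5.04, and replicate 1 thus lay 4.54 below the mean of the others on the log2 scale (-4.54). None of the 227 other card A assays with a Ct in all 3 βTC1 samples was as low in replicate 1. The lowest of them, miR-196c, stood at -4.29, and the median over the 227 was 0.14. In either direction 4 of the 227 were as far from the other replicates, all of them higher in replicate 1. For the 3p arm only replicate 2 could be set against replicate 1, and the difference was -3.63. Of 173 other card B assays compared in the same way, 18 (10.4%) were as low and 29 as far in either direction, around a median of -0.81. Without βTC1 replicate 1 the line difference was -9.60 for miR-31, and -12.87 for miR-31* on the only βTC1 value then left. Even replicate 1 held 11.6 times as much miR-31 per miR-26a as the highest αTC1-6 sample.

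**Figure D2:**
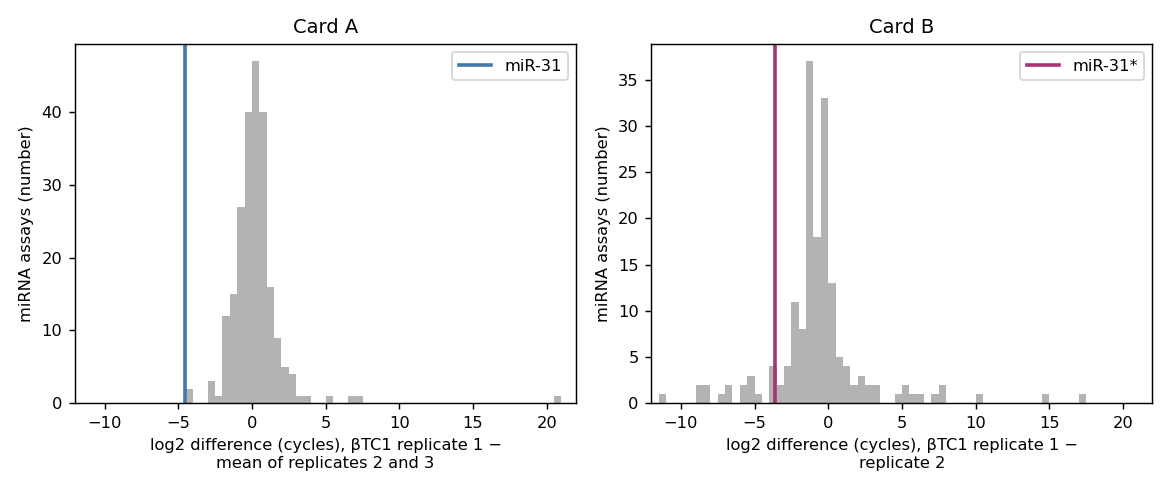
Number of miRNA assays (vertical axis) by the log2 difference of βTC1 replicate 1 (horizontal axis, in cycles) from the mean of replicates 2 and 3 on card A and from replicate 2 alone on card B, where replicate 3 of miR-31* is blank. miR-31, the coloured line at -4.54, lies beyond the lowest other card A assay, and miR-31*, at -3.63, has 18 of 173 card B assays as low.

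The second question of the study, the response of αTC1-6 to cytokines, was tested for both arms with limma across all assays of each comparison. At 24 h the Ct of miR-31 was 31.98, 34.9999 and 32.96 with cytokines, against the 33.97, 32.38 and 31.76 without. The treated samples lay on both sides of the untreated ones, with a ΔCt of 15.05 ± 1.97 (SD, n = 3) after cytokines. The log2 difference was -0.42 (SE 1.05, 95% interval -3.05 to 2.22, limma adjusted p = 0.963). Neither arm passed the adjusted threshold of 0.05 at 24 h, nor did most assays, of which 0.225% of 445 did. In 232 of the 445 assays the difference was larger in size than that of miR-31. By replicate number the treated minus untreated difference was 1.88, -2.21 and -0.92, so the pairs did not share a direction.

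At 48 h the values of the 5p arm were closer together. The Ct of miR-31 was 33.97, 32.98 and 32.96 in untreated αTC1-6 and 33.13, 32.90 and 33.01 after cytokines. The ΔCt was 15.33 ± 0.579 and 15.13 ± 0.465 (SD, n = 3 each), and the groups overlapped. The log2 difference of 0.20 (SE 0.455, 95% interval -0.96 to 1.37, limma adjusted p = 0.887) was smaller in size than that of 470 of the 534 assays tested. Of all 534, 0.562% passed the adjusted threshold and the median difference was -0.51. The size depended on the reference, as it was 0.88 with each sample centred on its median assay (limma adjusted p = 0.7497) and 0.53 with U6 and small nucleolar RNAs in place of miR-26a.

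The 3p arm fell into unlike values within most αTC1-6 groups. After 24 h with cytokines its Ct was 38.10 in replicate 1 and 32.14 in replicate 2, and replicate 3 is blank in the normalized table, with 35.09 in the non-normalized one. At 48 h the untreated samples had 31.20, 30.31 and 31.98, the only αTC1-6 group in which all 3 wells amplified before cycle 35. After 48 h with cytokines replicate 1 had 30.91, replicate 2 had exactly 38 and replicate 3 was undetermined. Treated replicate 1 thus lay within the untreated range and the other treated samples below all of it, with a ΔCt of 13.20 ± 0.912 untreated and 18.42 ± 5.32 treated (SD, n = 3 each).

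The 95% interval of the cytokine difference of this arm included 0 at both 24 h and 48 h. For miR-31* the cytokine difference was 1.42 (log2, SE 3.31, 95% interval -7.45 to 10.29, limma adjusted p = 0.970) at 24 h, on 3 untreated and 2 treated values. At 48 h it was -5.23 (SE 2.78, 95% interval -12.33 to 1.87, limma adjusted p = 0.380). At an unadjusted 0.05, 11.2% of the 534 assays passed in limma at 48 h, and miR-31* did not. By replicate number, treated minus untreated was -0.20 and -1.14 at 24 h in replicates 1 and 2, and -0.20, -6.96 and -8.53 at 48 h. All were below 0, but the -0.20 of 24 h compares wells at or past cycle 38. The -6.96 and -8.53 come from the well at exactly 38 and the undetermined well. Replicate 3 of 24 h has no pair value, as its untreated well was undetermined and its treated value is blank. With the non-normalized table, where that treated Ct is 35.09, the 24 h difference was 1.28. The direction at 24 h turned to -0.67 when undetermined wells were left out. The 48 h value became -3.16 without the undetermined well and -2.56 with Ct values above 35 set to 35.

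**Figure D3:**
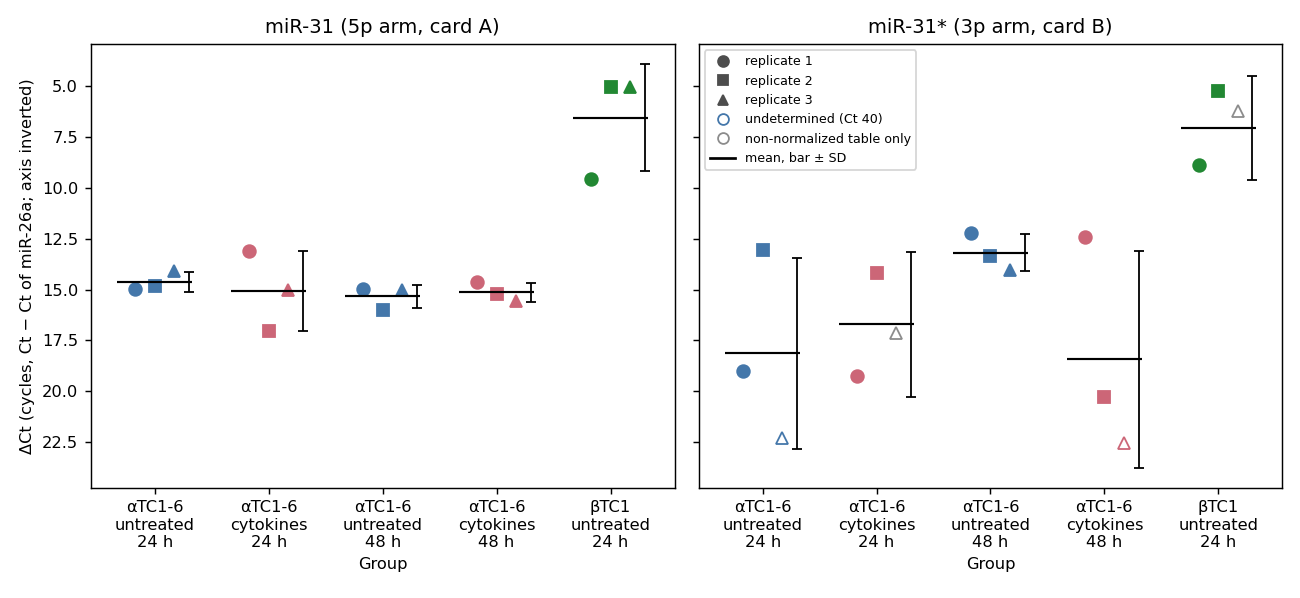
ΔCt against miR-26a (vertical axis in cycles, inverted so that higher points mean more miRNA) of miR-31 and miR-31* in every sample of the 5 groups, with symbols for the replicates, horizontal lines for the mean and bars for the SD. The βTC1 samples lie above all αTC1-6 samples for both arms, and the miR-31* values of αTC1-6 spread from 12.2 to 22.6 while those of miR-31 spread from 13.1 to 17.0.

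The 48 h against 24 h comparison of untreated αTC1-6 and the difference between the cytokine effects were tested in the same way. In untreated αTC1-6, 235 to 257 card A assays had a Ct at 24 h and 303 to 323 at 48 h. Culture time and any difference in how the sets were run cannot be told apart. Untreated αTC1-6 at 48 h minus 24 h gave -0.70 for miR-31 (log2, SE 0.469, limma adjusted p = 0.853) and 4.93 for miR-31* (SE 2.40, 95% interval -1.11 to 10.97, limma adjusted p = 0.869), where 5.93% of 489 assays passed. The effect at 48 h minus that at 24 h was 0.62 for miR-31 (SE 1.19, limma adjusted p = 0.992) and -6.65 for miR-31* (SE 4.56, limma adjusted p = 0.556), where 0.21% of 477 assays passed. For miR-31*, leaving out undetermined wells gave 2.84 for the time and -2.49 for the difference of the effects, and setting Ct values above 35 to 35 gave 2.26 and -2.87. These comparisons share the untreated samples with the cytokine comparisons. The low 48 h Ct values of untreated miR-31* enter the time, the 48 h cytokine and the last comparison alike.

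**Figure D4:**
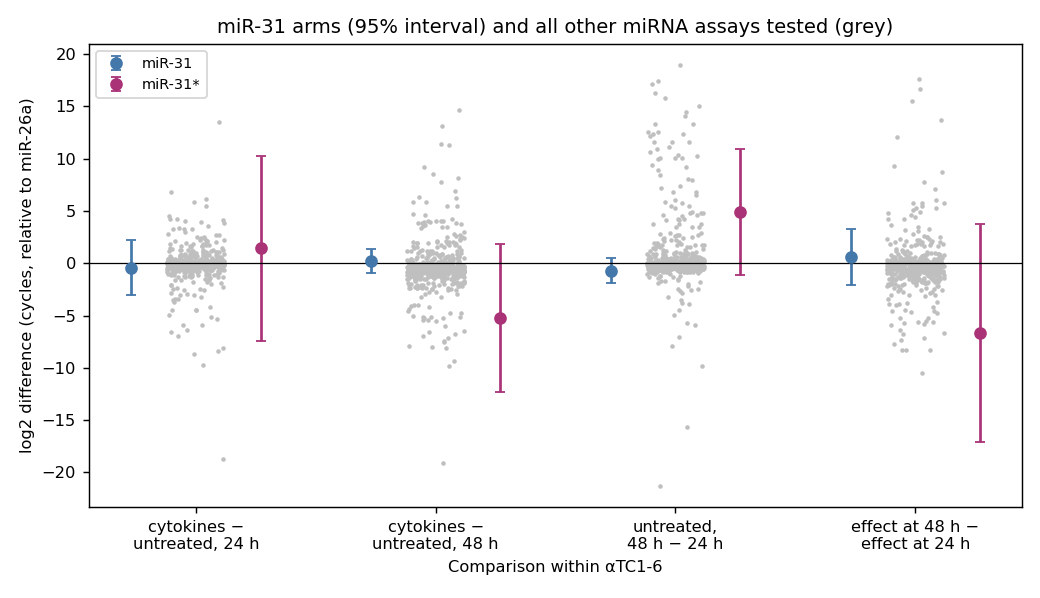
Log2 differences relative to miR-26a (vertical axis, in cycles) in 4 comparisons within αTC1-6 (horizontal axis), with 95% intervals for miR-31 and miR-31* and grey points for every other assay tested. All 8 intervals of the arms include 0, and those of miR-31* are the wider in each comparison, such as -12.33 to 1.87 against -0.96 to 1.37 at 48 h.

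Another miRNA changed with the treatment in the same samples. Of 8 miRNAs known to respond to NF-kB, the pathway through which IL-1 and TNF signal, 7 were tested. miR-146a, which dampens that pathway, passed at 48 h with a log2 rise of 3.82 (SE 0.268, limma adjusted p = 0.00458). At 24 h its difference was 3.30 (SE 0.485, limma adjusted p = 0.0985), which did not pass. None of the other 6 passed at either time. The median of the 7, all on card A, was 0.18 at 24 h and 0.72 at 48 h. Over all card A assays tested it was -0.27 and -0.33.

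The relation between the arms was described by the Ct of miR-31* minus that of miR-31 in the same sample, a gap that also holds the unequal efficiencies of the assays. In βTC1 the gap was -0.69 and 0.22 in replicates 1 and 2, so the arms crossed the threshold within 1 cycle of each other. In untreated αTC1-6 of 48 h it was -2.76, -2.67 and -0.98, the 3p assay crossing first in each sample. In the other αTC1-6 groups the gap took both signs. It was 4.03, -1.79 and 8.24 in untreated samples of 24 h, 6.11 and -2.86 with cytokines at 24 h, and -2.22, 5.10 and 6.99 with cytokines at 48 h, where 8.24 and 6.99 come from undetermined wells set to 40. Cytokine-treated minus untreated gaps differed by -1.86 cycles at 24 h (two-sided exact permutation test, p = 0.7, 2 against 3 samples) and by 5.43 cycles at 48 h (two-sided exact permutation test, p = 0.2, 3 against 3 samples). The smallest p that either design allows is 0.1, so neither could pass 0.05. With Ct values above 35 set to 35, the 48 h difference of the gaps was 2.76 cycles. The 48 h gap difference is not a separate result from the cytokine difference of miR-31* (log2 -5.23). Both draw on the same wells, and miR-31 itself differed by 0.20.

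**Figure D5:**
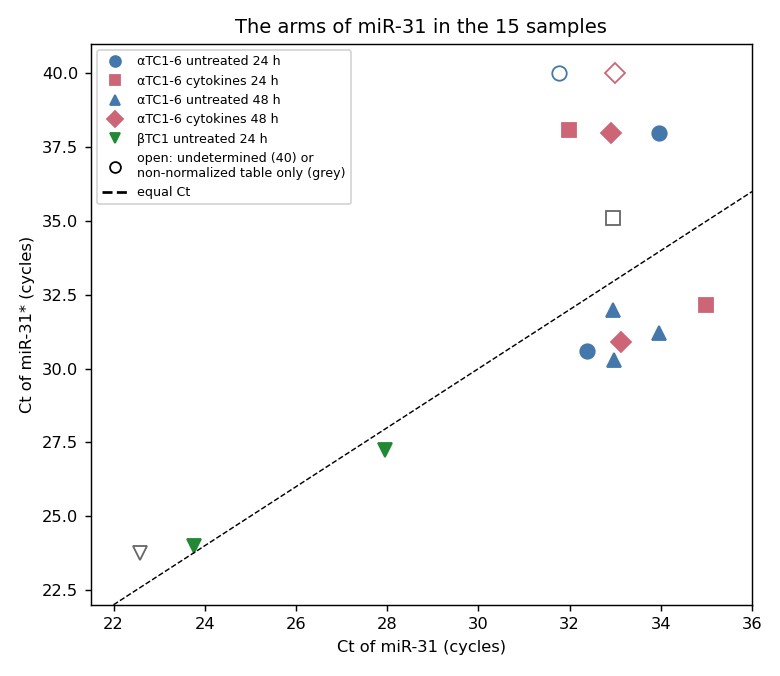
Ct of miR-31* (vertical axis) against Ct of miR-31 (horizontal axis) in the 15 samples, with the dashed line at equal Ct and open symbols for undetermined wells and for values of the non-normalized table alone. The βTC1 samples lie near the line, and the αTC1-6 samples, all between 31.76 and 34.9999 for miR-31, spread over 30.31 to 40 for miR-31*.

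Of 142 other hairpins with both arms on the cards, 88 had at least 11 samples with a Ct for both, as miR-31 did, and the SD of their gap over samples had a median of 0.881 cycles. For miR-31 it was 3.35 cycles, with the late wells at or past cycle 38 included, and 8 of the 88 were as large. Within the αTC1-6 groups, the SD of miR-31 was 1.08 cycles, beside a median of 0.541 for the 173 other card A assays with a Ct in all 12 samples, of which 14 were as large. The SD of miR-31* was 3.997 cycles, with 2 undetermined wells entered at 40 and 1 blank left out. Of the 5 other card B assays with a Ct in 9 of the 12 samples, 3 had an SD as large, and their median was 5.03. The spread of miR-31* was thus within the range of card B assays with as many missing Ct values.

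Both arms pointed the same way between the lines, as did the arms of 89 of 110 other hairpins (80.9%) with both arms in that comparison. Within its card, miR-31 in αTC1-6 crossed the threshold after 89.4% to 97.2% of the assays with a Ct. In βTC1 it crossed after 67.2% of them in the highest replicate by Ct and after 29.1% in the lowest, in the middle of the card. miR-31*, where it had a Ct, lay between 67.7% and 99.5% in αTC1-6 and at 26.7% and 49.7% in βTC1.

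The assays whose pattern was most like that of miR-31 were found by the root mean square difference of log2 levels after centring each assay, among 461 assays. Over the 15 samples they were miR-218 (1.39), miR-139-5p (1.45), miR-672 (1.50), miR-322 (1.90) and miR-676* (1.91), against a median of 3.73 over all 461. All of these were also higher in βTC1. That direction is largely built in, as miR-31 was chosen by its line difference and the βTC1 samples enter the distance. In βTC1 replicate 1, where miR-31 differed from the other replicates by -4.54, miR-218 differed by 0.15, miR-139-5p by 0.29, miR-676* by -0.36 and miR-322 by -1.63, and miR-672 is blank there. Over the 12 αTC1-6 samples the nearest were miR-30d (0.645), miR-335-3p (0.652), miR-324-5p (0.655), miR-325* (0.699) and miR-296-5p (0.712), with a median of 1.19. An assay with no variation would lie at 0.918, the spread of miR-31 about its own mean, so these distances show little shared pattern. Of the 12 samples, miR-335-3p was compared in 9, and miR-325* and miR-296-5p in 11.

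For miR-31* the nearest patterns over 15 samples were miR-378* (3.35), miR-672 (3.53), miR-465b-5p (3.65), miR-322* (3.66) and miR-135a (3.70), against a median of 4.90. Over the αTC1-6 samples alone they were miR-322* (2.89), miR-758 (2.95), miR-378* (3.07), miR-376c* (3.07) and miR-135a* (3.33). These distances were larger than those of the nearest assays to miR-31 over the same samples. The other arm of the hairpin was not among the 5 nearest for either assay.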

How the data were processed

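MiRNAs of 15 samples were assayed by TaqMan PCR on the rodent card set, A and B. The authors deposited a table of Ct values without normalization and a table of ΔCt, log2 values relative to miR-26a, beside relative quantities, which are linear ratios to miR-26a, deposited with each cycle of ΔCt worth a factor of 2. A further deposited table of fold changes between sample pairs was not used. RNA was preamplified before loading, which can add error to low levels, and the authors quantified Ct with Statminer, whose settings are not given in the sources used here. The methods name several reference RNAs, whereas the deposited ΔCt is relative to miR-26a alone. No depth underlies a Ct, so precision rests on the replicates. The labels do not say whether these were separate cultures, and the study's methods call them biological replicates.

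Each arm is in a single well. For each comparison, limma 3.58.1 (R 4.3.3) was run on the negative ΔCt, with undetermined wells at a Ct of 40, blanks left out, assays required to have a Ct in at least 3 samples of a 6-sample fit, 7 control assays and miR-26a left out, eBayes moderation and two-sided p-values adjusted by Benjamini-Hochberg within each card at 0.05. The scripts were tested on simulated data. Exact permutation tests and summaries used Python 3.11.15.

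Same-numbered samples of treated and untreated αTC1-6 deviated together (r from 0.259 to 0.476 over 278 assays). Those of untreated αTC1-6 at 24 h and 48 h did so less (r from -0.0447 to 0.238). Samples of unlike number were not compared, so it is not settled that the numbers pair the samples. The main tests took the samples as unpaired. Named were both arms, the 5 closest patterns, the neighbours in the ordered line difference and, by counts, lists of NF-kB, islet and other-tissue miRNAs. The members and lists were chosen with earlier results of these data known. Of the 12 miRNAs of other tissues, miR-126-3p, miR-126-5p, miR-145, miR-206, miR-223 and miR-142-3p had a Ct in all 15 samples, and miR-143 had none in βTC1.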

Additional observations from a re-analysis of the deposited data

Results flagged for a closer look

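The Ct of miR-31* in βTC1 replicate 3 stands in the non-normalized table, at 23.77, while its cell in the normalized table is blank, so it entered no comparison above. It caught attention because it lies below the Ct of every untreated αTC1-6 sample of 24 h, for which the lowest was 30.59. It lies 1.19 cycles after miR-31 in the same sample and beside the 23.99 of replicate 2. With the non-normalized table, the line difference of miR-31* was -11.34.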

How the results depend on the processing

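Of 160 alternative values for the 8 tested results, none reached an adjusted p under 0.05 in limma. The lowest, 0.0606, was that of miR-31* at 48 h without treated replicate 1 (-8.23). At 24 h the miR-31* difference was -0.67 with undetermined wells left out. With the replicate number as a block it was -0.67 as well, and the block changed no call. The line difference of miR-31* was -6.13 with the untreated αTC1-6 of 48 h. Leaving out single replicates moved the 24 h cytokine difference between -1.39 and 0.58 for miR-31 and between -1.09 and 3.96 for miR-31*, and the 48 h difference between -0.13 and 0.42 for miR-31 and between -8.23 and -3.16 for miR-31*. The time difference of miR-31* then ran from 2.84 to 7.47. The difference of the effects ran from -0.38 to 1.59 for miR-31 and from -9.65 to -4.13 for miR-31*, and the gap between the arms from -6.35 to 2.62 cycles at 24 h and from 3.58 to 8.18 cycles at 48 h. The line difference ran from -9.60 to -7.33 for miR-31 and from -13.60 to -8.97 for miR-31*. The cause of these shifts was not tested. miR-31* could not be fitted with a Ct required in every sample. Ct values past cycle 35 and undetermined wells limit what can be said of miR-31* in αTC1-6.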

Other observations

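Of the 9983 wells with a Ct, 34.7% had a decimal part of 0.9 or more, where an even spread gives 10%, and the share ran from 23.6% to 43.3% over the samples. For miR-31 this held in 9 of 15 wells and for miR-31* in 3. A Ct of exactly 38 occurred in 6 wells of all cards, of which 2 were miR-31*, in untreated replicate 1 of 24 h and treated replicate 2 of 48 h.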
